A study of Mus musculus with 4 samples.

Results

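The genes for the proteins of the cytosolic ribosome were examined in RNA-seq of spinal motor neurons. Members were the entries whose gene symbol is Rpl or Rps with a number, Rplp0, Rplp1 or Rplp2, or Rpsa, without the S6 kinases. The rule took 82 of 27189 gene entries, which carry 80 symbols, 49 of the large (60S) and 31 of the small (40S) subunit. Rpl29 has 3 entries, and the entry with the highest mean stands for the symbol. Rpl10l was not analysed here, and the entry for Rplp0 is listed under its older name Arbp, which the rule does not take.

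The 4 libraries each came from 1 mouse 3 months of age on a mixed C57BL/6J x SJL/J background, and large ventral horn cell bodies were cut out by laser from stained cord sections, 3000 to 4000 per animal. All 4 mice carried human SOD1, an enzyme that removes superoxide, fused to yellow fluorescent protein (YFP) on a genomic fragment of the human gene. The 2 wild-type SOD1-YFP mice (strain 592) served as controls, since the study compared a mutant with a corresponding wild-type transgene, and no nontransgenic mouse was included. The 2 G85R SOD1-YFP mice (strain 737) carried the mutation that causes a motor neuron disease in this strain at a later age, and their cells with large bright aggregates were left out of the capture. The G85R strain carries many more copies of its transgene, so that mutation, strain and copy number cannot be told apart. The labels tell the replicates of a genotype apart by number alone, and whether capture or sequencing batches differed is not stated. The p-values from limma rest on the spread between these 4 samples, with the variance of a gene drawn in part from other genes.

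A ribosome joins a small subunit, which reads the messenger RNA, to a large subunit, which forms the peptide bond, and each subunit is a core of ribosomal RNA clothed with proteins, nearly all of them in a single copy. Motor neurons hold dense stacks of ribosomes in their cell bodies, the Nissl substance, and it is this RNA that basic dyes such as Azure B stain. The messengers of ribosomal proteins are short, abundant and begin with a pyrimidine tract through which mTOR signalling controls their translation. In mammals these messengers have left many intronless processed copies across the genome, most of them pseudogenes, and a short read from a messenger may therefore match several places.

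Because of such copies, sequences are shown first for members at both ends of the range of levels. The windows cover 15 bases on either side of an exon junction in the middle of the coding sequence, taken from the mm9 (NCBIM37) genome with GENCODE exons. For 4 members listed at 0 in every library, the window crosses the junction in the messenger but lies unbroken elsewhere in the genome. The 75 bases around it, the length of a read, also matched there with 0 mismatches. Capitals mark bases that differ from the messenger.
Rpl11, exons 3 and 4, chr4:135607529-135607543 and chr4:135607203-135607217, minus strand: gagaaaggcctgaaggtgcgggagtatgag
Its match at chr14:49315531-49315560, minus strand: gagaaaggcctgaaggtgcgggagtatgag
Rpl24, exons 3 and 4, chr16:55967269-55967283 and chr16:55969623-55969637, plus strand: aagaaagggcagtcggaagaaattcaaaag
Its match in the pseudogene Gm9385 at chr9:115949975-115950004, minus strand: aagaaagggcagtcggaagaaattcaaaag
Rps27, exons 2 and 3, chr3:90017115-90017129 and chr3:90016952-90016966, minus strand: acgtgaaatgcccaggatgctataaaatca
Its match at chr15:99537115-99537144, minus strand: acgtgaaatgcccaggatgctataaaatca
Rps29, exons 1 and 2, chr12:70259984-70259998 and chr12:70259733-70259747, minus strand: gggttcccgctcttgccgcgtctgctccaa
Its match in the pseudogene Gm14303 at chr2:172335115-172335144, minus strand: gggttcccgctcttgccgcgtctgctccaa
The next windows are from 3 of the members with the highest mean levels. For Rpl8 no other place matched the surrounding 75 bases with up to 2 mismatches, for Rpl4 the nearest place differed at 2 bases, and for Rps15 it differed at 1 base, which lies outside the window printed.
Rpl8, exons 3 and 4, chr15:76735096-76735110 and chr15:76735248-76735262, plus strand: actgcggcaagaaggcccagctgaatatcg
Rpl4, exons 6 and 7, chr9:64024863-64024877 and chr9:64025128-64025142, plus strand: tccgcaacatccctggtattactctgctta
Its nearest match at chr1:144990493-144990522, minus strand: tccgGaacatccctgCtattactctgctta
Rps15, exons 3 and 4, chr10:79756607-79756621 and chr10:79756712-79756726, plus strand: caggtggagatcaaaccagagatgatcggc
Its nearest match at chr10:116409923-116409952, minus strand: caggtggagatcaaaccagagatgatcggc

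The level of a gene was its RPKM, the reads of a gene scaled by transcript length and by mapped reads of the library, so that levels of different genes are compared per length. Over all genes, 1 read was worth a median of 0.0195 to 0.0226 RPKM in the 4 libraries, and 0.0488 to 0.0568 RPKM over the ribosomal protein entries, most of which are short. The members held between 36398 and 38451 estimated reads in a library. Of 10 motor neuron markers fixed, 9 had an entry, and all 9 were above 0, with a summed level of 3310 and 3716 RPKM in the wild-type and 2615 and 3364 RPKM in the G85R libraries. Markers of other cells were present too, and G85R replicate 1 held the most of astrocytes (1309 RPKM summed over 10 of 10 genes, against 910.2 to 1005 in the other 3 libraries) and of microglia (86.1 over 12 of 12 genes, against 44.6 to 52.7), and of oligodendrocytes (1138, against 872 to 955). Red blood cell genes summed to 2.31 and 2.72 RPKM in wild type but 13.5 and 12.7 RPKM in G85R, and endothelial genes to 12.5 to 14.0 RPKM throughout. Most of the astrocyte sum came from S100b and Aldoc, with 498 and 671 RPKM in G85R replicate 1. On the log2 scale, the median astrocyte gene stood 0.41 above its mean of the 4 libraries in G85R replicate 1. In the other 3 libraries this median lay from -0.16 to -0.07. The part of these other cells in the results below was not tested. Results are also given without G85R replicate 1, which leaves 1 G85R mouse. That cannot separate the content of other cells from anything else about the library.

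The levels of these genes, whose products are needed in nearly equal numbers, ran from 0 to 269 RPKM (the mean of Rpl8). Of the 80 symbols, 3 had a mean of at least 100 RPKM over the 4 libraries, 15 a mean of 10 to 100, 21 a mean of 1 to 10 and 41 a mean under 1. A mean of at least 1 RPKM was reached by 48.8% of the symbols and by 42.4% of all gene entries. Rpl11, Rpl24, Rps27 and Rps29 were listed at 0 in all 4 libraries, and 15 symbols were listed at 0 in at least 1 library. The large subunit had 27 of 49 symbols under 1 RPKM, and the small subunit 14 of 31.

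**Figure D1:**
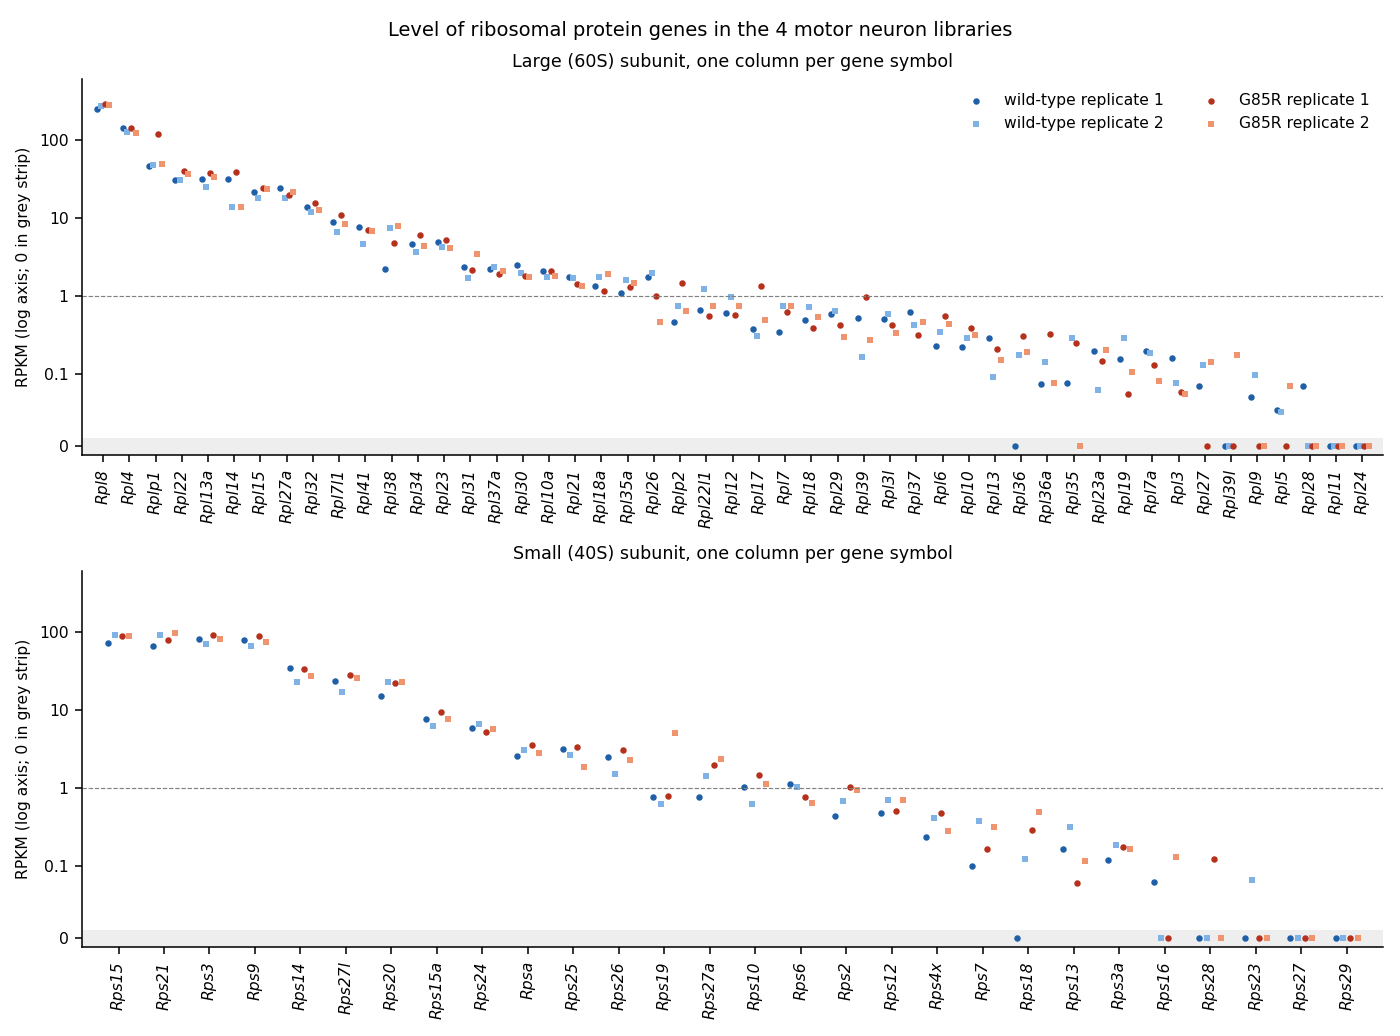
Level of 77 of the 80 ribosomal protein genes in the 4 libraries, in RPKM on a log axis with values of 0 in a grey strip; the upper panel shows the large and the lower panel the small subunit, circles are replicate 1, squares are replicate 2, blue is wild type and red is G85R. The 4 libraries lie close together for most genes above 10 RPKM, while the genes themselves run from 269 RPKM (Rpl8) down to 0, with 40 of those drawn below the dashed line at 1 RPKM.

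The highest members were a few core proteins of either subunit. Rpl8, a protein near the peptidyl transferase centre (Entrez 26961, chr15:76734501-76736748), had 249 and 266 RPKM in the wild-type and 288 and 274 RPKM in the G85R libraries. Rpl4, which lines the exit tunnel of the nascent chain and has the longest coding sequence of the members with a messenger sequence (1260 bases), had 139 and 125 RPKM in wild type and 139 and 121 RPKM in G85R. Rpl8 was higher in both G85R libraries than in either wild-type library, and Rpl4 overlapped between genotypes. The 5 entries with the highest means made up between 52.2% and 59.8% of the summed level of all members in a library.

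Next came the small subunit proteins Rps15, Rps21, Rps3 and Rps9, with single values from 64.7 to 95.7 RPKM. Rps15, a protein of the head of the small subunit, had 70.5 and 91.2 RPKM in wild type and 86.9 and 87.3 RPKM in G85R. Rps3, which lines the entry of the messenger channel, had 81.3 and 69.0 RPKM in wild type and 90.5 and 79.4 RPKM in G85R. The wild-type replicates of both genes lay further apart than the means of the genotypes. Rps9, another protein of the messenger entry, and Rps21 overlapped between genotypes as well.

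The low members included proteins with essential roles in every ribosome. Rpl5 and Rpl11, which carry the 5S RNA into the large subunit and bind Mdm2 when ribosome assembly fails, had a mean of 0.0342 RPKM and were listed at 0, respectively. Rpl3, which contacts the peptidyl transferase centre, had 0.161 and 0.0757 RPKM in wild type and 0.0587 and 0.0553 RPKM in G85R. Rps16, Rps23, Rps28, Rpl9, Rpl27 and Rpl28 were each listed at 0 in at least 1 library and reached 0.142 RPKM at most. Rps18, Rpl35 and Rpl36 were also at 0 in 1 library each and reached up to 0.494 RPKM in the others. Means from 0.0876 to 0.302 RPKM were found for Rpl3, Rpl7a, Rpl10, Rpl13, Rpl19, Rpl23a, Rpl36a, Rps3a, Rps7 and Rps13. Means from 0.348 to 0.876 RPKM were found for members such as Rpl6, Rpl7, Rpl12, Rpl17, Rpl18, Rpl29, Rpl37, Rpl39, Rps2, Rps4x, Rps6 and Rps12. Rps6, the small subunit protein phosphorylated by the S6 kinases downstream of mTOR, had the highest mean of those under 1 RPKM, with 1.10 and 1.02 RPKM in wild type and 0.752 and 0.632 RPKM in G85R.

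The acidic stalk proteins, which recruit translation factors to the large subunit as dimers on Rplp0, did not share a level. Rplp1 had 46.0, 47.0, 117 and 48.4 RPKM in wild-type replicates 1 and 2 and G85R replicates 1 and 2. Its partner Rplp2 had 0.465, 0.730, 1.44 and 0.640 RPKM in the same order. Arbp, the entry for Rplp0, had 2.01, 2.16, 2.63 and 2.05 RPKM. All 3 were highest in G85R replicate 1, though the RPKM of Rplp1 stood far above those of Rplp2 and Arbp. Rplp2 had 6 to 17 estimated reads in a library. Of the 75-base coding windows, 20.3% for Rplp1 and 0% for Rplp2 matched no other place in the genome with up to 2 mismatches. Arbp was not searched in this way, and what part copies have in these levels was not tested. Rpsa, the laminin receptor and small subunit protein, had 2.55 and 3.03 RPKM in wild type and 3.50 and 2.79 RPKM in G85R, with overlapping groups.

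Members with a paralog showed no common order. Rps27l had 23.2 and 16.8 RPKM in wild type and 27.5 and 25.8 RPKM in G85R, while the canonical Rps27 was listed at 0. Rpl7l1, a Rpl7 paralog, had 8.81 and 6.65 RPKM in wild type and 10.9 and 8.35 RPKM in G85R, above Rpl7, whose mean was 0.612 RPKM. Rpl22 had 30.8 and 30.2 RPKM in wild type and 39.8 and 36.4 RPKM in G85R, above its paralog Rpl22l1, whose mean was 0.792 RPKM. Rpl3l, a form known from striated muscle, and Rpl39l, a form known from testis and with 156 coding bases as short as Rpl39, had means of 0.460 and 0.0438 RPKM. Rpl39l was at 0 in 3 libraries and Rpl39 had a mean of 0.476 RPKM. Of the 75-base coding windows, 56.4% for Rps27l, 39.7% for Rpl7l1 and 38.98% for Rpl22 matched no other place with up to 2 mismatches. The share was 0% for Rps27, Rpl7 and Rpl22l1, the lower gene of each pair. Rpl3l, with 100%, likewise stood above Rpl3 (0%, mean 0.0876 RPKM). Rpl39l went the other way, with 100% but a lower mean than Rpl39 (0%). What part copies have in the order of these pairs was not tested.

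To describe how the levels relate to copies of the messenger, every stretch of 75 bases in a coding sequence was sought in the other parts of the genome, with up to 2 mismatches and outside the gene itself. Of 79 symbols with a messenger sequence (Rpl41 could not be matched), 58 had no coding window that was unique. Their median level was 0.507 RPKM, and 39 of the 58 were under 1 RPKM. The 15 symbols with some unique windows but fewer than 50% of them had a median of 31.8 RPKM, and none of them was under 1 RPKM. The 6 symbols with at least 50% unique windows included Rpl8 (93.3%), Rps3 (79.2%) and Rps27l (56.4%), with levels above 20 RPKM, and the muscle and testis forms Rpl3l and Rpl39l (both 100%). All 11 members at 30 RPKM or more had unique coding windows, with a share of 12.5% at the lowest, and 39 of the 41 members under 1 RPKM had none.

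The relation was alike in each library. Over the 79 symbols, the Spearman correlation of the unique share with the level was 0.60 and 0.59 for wild type and 0.60 and 0.63 for G85R. This is a description across genes, which are not independent replicates and share their libraries. The median of the 58 symbols without a unique window was 0.453 and 0.521 RPKM in wild type and 0.486 and 0.474 RPKM in G85R. Rpl15 and Rpl27a stood at 21.7 and 20.6 RPKM without any unique coding window, even where only exact matches counted. Over their whole messengers of 1922 and 1158 bases, 50.8% and 58.2% of the windows were unique.

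Genes for the mitochondrial ribosome, which serve a parallel role but have fewer genomic copies, gave a contrast of the same kind. Of their 75 symbols, 46 had a fully unique coding sequence (2 of 79 for the cytosolic ribosome) and 4 had no unique window. Another place that matched at least 50% of the windows was found for 9 of 75 mitochondrial and 52 of 79 cytosolic symbols, up to 23 such places for Rpl7a, a protein of the large subunit. The mitochondrial symbols had a median of 34.4 RPKM, against 0.848 RPKM for the 80 cytosolic symbols, and 1 of 75 had a mean under 1 RPKM, against 41 of 80. Their highest mean, 102 RPKM, lay below those of Rpl8 and Rpl4. What part the copies have in the low RPKM was not tested beyond this description, and the genotypes are compared below within each gene.

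**Figure D2:**
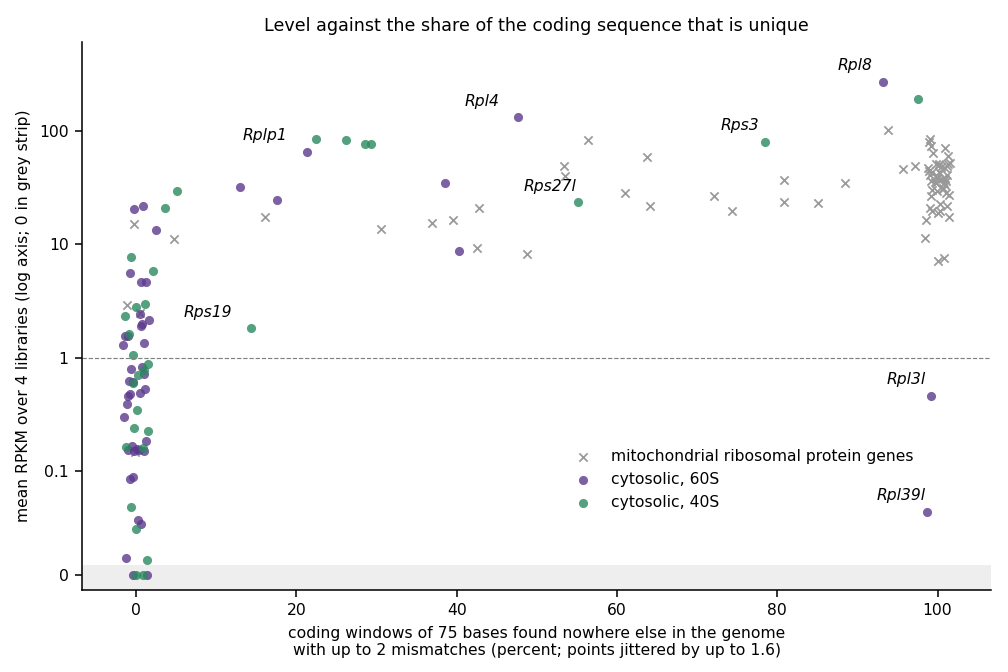
Mean level over the 4 libraries (RPKM, log axis, 0 in the grey strip) against the percent of coding windows of 75 bases found nowhere else in the genome with up to 2 mismatches; circles are cytosolic ribosomal protein genes (purple 60S, green 40S) and crosses mitochondrial ones. The 58 cytosolic genes at 0% spread from 0 to 21.7 RPKM, most of them under the dashed line at 1 RPKM, while Rpl3l and Rpl39l are the cytosolic genes low in level with a fully unique sequence.

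The genotypes were then compared to ask whether ribosomal protein messengers change in motor neurons of presymptomatic mutant mice. The summed level of the 82 entries was 1277 and 1267 RPKM in wild type and 1517.5 and 1359 RPKM in G85R, or 0.330% and 0.326% of all RPKM against 0.387% and 0.345%. Both G85R sums lay above both wild-type sums, with means of 1272 ± 7.13 (SD, n = 2) and 1438 ± 112 RPKM (SD, n = 2), a ratio of 1.13. The two-sided exact permutation p was 0.333, the smallest that 2 against 2 libraries allow. The ratio was 1.07 without G85R replicate 1. It was 1.20 without the 5 highest entries, with an exact permutation p of 0.667. The small subunit gave 640.1 and 662 RPKM in wild type and 742 and 722 RPKM in G85R, with no overlap, and the large subunit 637 and 605 RPKM in wild type and 775 and 636 RPKM in G85R, with overlap. In samples pooled from many captured cell bodies, a different mix of cells and a different amount of RNA per cell cannot be told apart.

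For single genes, limma was used on log2(RPKM + 0.1) over the 11530 entries with a mean of at least 1 RPKM, 39 of which were ribosomal protein entries, 1 per symbol. No ribosomal protein entry passed a Benjamini-Hochberg adjusted p of 0.05 (0 of 39), where 0.642% of all tested entries passed. At an unadjusted p under 0.05 stood 3 entries higher in G85R (7.69%), where 4.66% of all tested entries were, and 1 lower (2.56%), where 6.37% were. The shares are near the background in both directions. The remaining 43 entries were too low to be tested, and 6 of them were at 0 in every library.

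The direction was less even than the calls. The mean log2 level was higher in G85R for 30 of 39 entries (76.9%), where 45.3% of all tested entries were higher, and the median log2 fold change was 0.17, against -0.02 over all tested entries. Both G85R values lay above both wild-type values for 12 entries (30.8%), where 17.3% of all tested entries did, and below them for 5 entries (12.8%), where 23.9% did. Of the 18 members at 10 RPKM or more, 16 were higher in G85R and 8 did not overlap in that direction, with none in the other. Of all 5783 entries at that level, 48.5% were higher and the median log2 fold change was -0.01, against 0.17 for the 18 members. The members at 1 to 10 RPKM were higher in 14 of 21 cases, with a median of 0.16. Rps10 and Rps19 reached the mean of 1 RPKM only through G85R (wild-type means 0.816 and 0.690). Rpl26 did so only through wild type (G85R mean 0.730), and all remain in these counts. No test was made of these shares, since the genes share their libraries and are not independent.

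**Figure D3:**
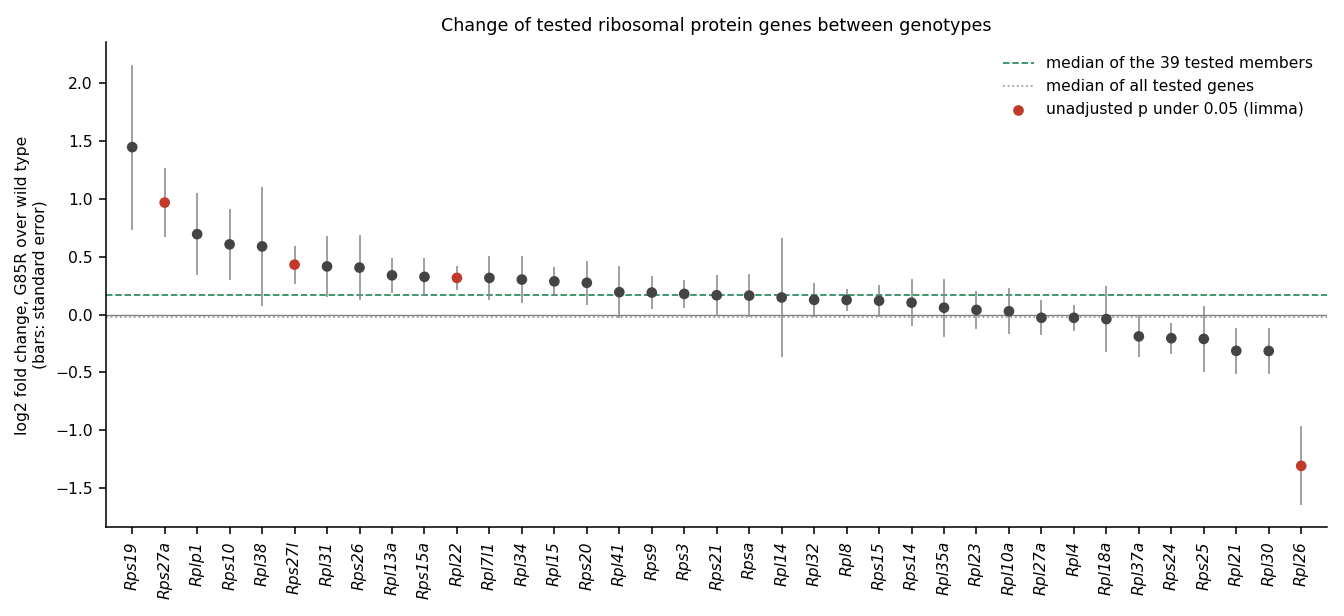
Log2 fold change of 37 of the 39 tested ribosomal protein entries between genotypes (G85R over wild type, 2 libraries each) with the standard error from limma as bars; red points have an unadjusted p under 0.05, the dashed line is the median of the 39 (0.17) and the dotted line that of all tested entries (-0.02). Of the points drawn, 28 lie above 0, and Rps19, Rpl38 and Rpl14 have the longest bars.

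The shift was not carried evenly by the libraries. Against the mean of its 4 libraries, the median member stood on the log2 scale at 0.02 and -0.14 in wild-type replicates 1 and 2, and at 0.12 and 0.02 in G85R replicates 1 and 2. Over all tested entries these medians lay between -0.02 and 0.02. G85R replicate 1 was above the mean for 27 of 39 members and wild-type replicate 2 for 12, while wild-type replicate 1 and G85R replicate 2 had 23 and 20. The median log2 fold change was 0.09, with 27 of 39 higher, without G85R replicate 1, and 0.21 without G85R replicate 2. Gfap, the astrocyte filament, had 91.9 RPKM in G85R replicate 1 against 11.5 to 28.4 in the other libraries. The 10 tested microglia markers had medians of 0.70 in G85R replicate 1 and from -0.31 to -0.13 in the other 3 libraries. The part of other cells in the shift of the ribosomal protein genes was not tested.

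The 4 members with an unadjusted p under 0.05 were Rps27a, Rpl22, Rps27l and Rpl26. Rps27a, which is made as a fusion with ubiquitin and cleaved into both (chr11:29445846-29448109), had 0.770 and 1.40 RPKM in wild type and 1.96 and 2.32 RPKM in G85R, from 17 to 51 estimated reads per library. Both G85R libraries were above both wild-type libraries. The log2 fold change was 0.97 with a standard error of 0.30, a 1.96-fold difference, and the Benjamini-Hochberg adjusted p from limma was 0.298. None of its coding windows was unique.

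Rpl26, a large subunit protein known to bind the messenger of p53 (chr11:68715085-68720491), had 1.74 and 1.96 RPKM in wild type and 0.994 and 0.465 RPKM in G85R, from 35 down to 8 estimated reads. Both G85R libraries were below both wild-type libraries, and G85R replicate 2 was the lowest. The log2 fold change was -1.31 with a standard error of 0.34, 2.48-fold lower, with an adjusted p of 0.207 from limma. Without G85R replicate 1 the log2 fold change was -1.79 and the adjusted p from limma 0.0167 (where 0.833% of all tested entries were called), a fit in which the remaining G85R library is taken to vary as the others do. Its messenger had 13 other places with matching windows, and 24.5% of its coding windows were unique to an exact match but 0% with up to 2 mismatches.

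Rpl22, which is dispensable for most translation and needed in lymphocyte development, had 30.8 and 30.2 RPKM in wild type and 39.8 and 36.4 RPKM in G85R, from 1838 to 2166 estimated reads. The genotypes did not overlap, and the log2 fold change was 0.32 with a standard error of 0.11 (adjusted p = 0.338 from limma). Rps27l, a p53-inducible relative of Rps27, had values given above that did not overlap either, with a log2 fold change of 0.43, a standard error of 0.16 and an adjusted p of 0.411 from limma. Of these 4 genes, Rpl22 and Rps27l had unique coding windows, 38.98% and 56.4% with up to 2 mismatches.

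The log2 fold changes of Rps19 and Rplp1 rested on single libraries. Rps19, whose loss causes an inherited anaemia (chr7:25669390-25674825), had 0.761 and 0.618 RPKM in wild type, 0.796 RPKM in G85R replicate 1 and 5.04 RPKM in G85R replicate 2, or 15, 13, 15 and 99 estimated reads. One library was high and the other 3 were alike, and the mean of Rps19 reached the filter of 1 RPKM only through that library. Its log2 fold change, 1.45 with a standard error of 0.71, was the largest of the 39 and had an adjusted p of 0.530 from limma. It was 0.19 without G85R replicate 2, and 2.71 without G85R replicate 1 (adjusted p = 0.000679 from limma).

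Rplp1 (chr9:61761091-61762345) was the mirror case, with 117 RPKM in G85R replicate 1 and 46.0 to 48.4 RPKM in the other 3 libraries, or 1468 against 630 to 684 estimated reads. The log2 fold change was 0.70 with a standard error of 0.36 and an adjusted p of 0.544 from limma. Without G85R replicate 1 it was 0.06, and without G85R replicate 2 it was 1.33 (adjusted p = 0.00103 from limma, where 1.63% of all tested entries were called). By a log-linear likelihood ratio test that treats rounded RPKM as counts and takes no account of the spread between replicates, a form of the test the study names, Rplp1 was the 1 member of 82 called, at an adjusted p of 0.00253, where 0.228% of all entries were called.

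Rpl14 and Rpl38 differed between replicates in both genotypes. Rpl14, a large subunit protein (chr9:120480632-120483770), had 31.2 RPKM in wild-type replicate 1 and 13.8 in wild-type replicate 2, and 38.4 RPKM in G85R replicate 1 and 13.8 in G85R replicate 2. Replicate 1 was the higher by 2.26-fold in wild type and 2.78-fold in G85R, and the genotypes overlapped, with a log2 fold change of 0.15 and a standard error of 0.52. Rpl38, required for the translation of Hox messengers in the mouse embryo, had 2.18 and 7.32 RPKM in wild type and 4.68 and 7.91 RPKM in G85R. Replicate 2 was the higher, by 3.35-fold and 1.69-fold, and the log2 fold change of 0.59 had a standard error of 0.52. On the log2(RPKM + 0.1) scale, wild-type replicates were at least 2-fold apart for 2 of 39 members (5.13%), Rpl14 and Rpl38, where 0.945% of all tested entries were. In G85R they were so for 3 of 39 (7.69%), Rpl14, Rplp1 and Rps19, where 1.01% of all tested entries were.

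**Figure D4:**
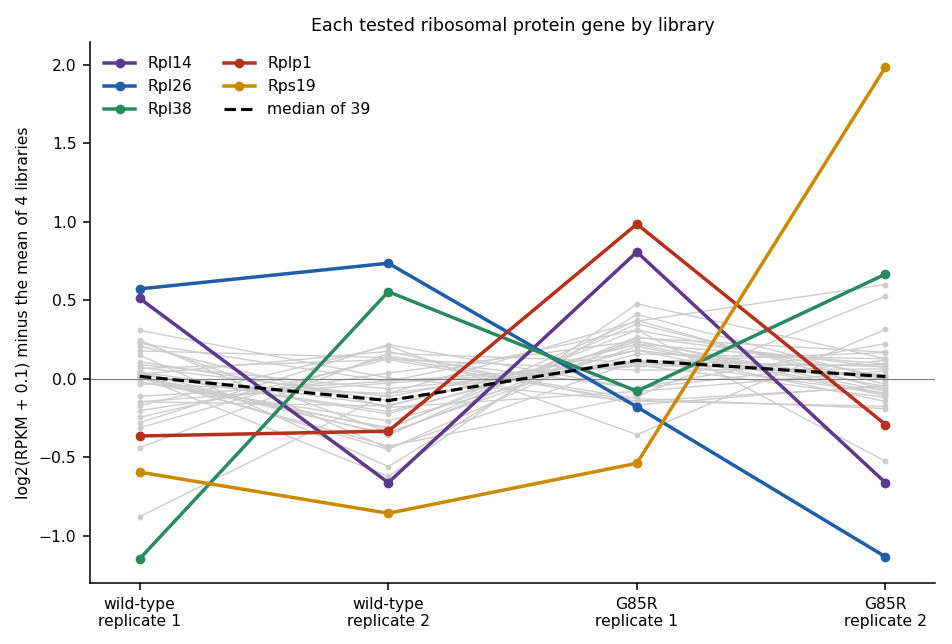
Deviation of each of the 39 tested members from its mean over the 4 libraries, as log2(RPKM + 0.1); grey lines are single genes, coloured lines the 5 genes named in the key and the dashed line the median. Rplp1 is high in G85R replicate 1 alone and Rps19 in G85R replicate 2 alone, Rpl14 and Rpl38 alternate with the replicate number, and Rpl26 is low in both G85R libraries.

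Among the remaining members with large differences, Rps10, a small subunit protein, had 1.01 and 0.618 RPKM in wild type and 1.44 and 1.11 RPKM in G85R, with a log2 fold change of 0.61 (standard error 0.30). Rpl30 and Rpl21 of the large subunit were lower in both G85R libraries than in both wild-type libraries. Rpl30 had 2.46 and 1.98 RPKM in wild type and 1.77 and 1.73 RPKM in G85R, and Rpl21 had 1.76 and 1.71 RPKM in wild type and 1.41 and 1.34 RPKM in G85R, each with a log2 fold change of -0.32 or -0.31 (standard error 0.20 for both). The log2 fold changes of Rps25 and Rps24 of the small subunit were both -0.21, and Rps24 did not overlap, with 5.87 and 6.51 RPKM in wild type and 5.12 and 5.59 RPKM in G85R. Rpl37a was the fifth gene lower in both G85R libraries, with 2.23 and 2.32 RPKM against 1.92 and 2.05. All 5 genes that were lower without overlap, Rpl21, Rpl26, Rpl30, Rpl37a and Rps24, had means under 10 RPKM.

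Among the members with the highest levels, Rpl8 had a log2 fold change of 0.13 (standard error 0.09) and Rpl4 one of -0.03 (0.11). Rps15, Rps21, Rps3 and Rps9 lay between 0.12 and 0.19 with standard errors from 0.12 to 0.17. The log2 fold changes of the 18 members at 10 RPKM or more ranged from -0.03 (Rpl4) to 0.70 (Rplp1), and 33 of the 39 tested members were within 0.5 of 0. None of these had an adjusted p under 0.05 from limma.

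Genes around the ribosome were described from 3 lists. For ribosome biogenesis, 55 entries were tested, of which 0 passed the adjusted p from limma, 2 were higher and 1 lower at an unadjusted p under 0.05, and the median log2 fold change was -0.08. Over all tested entries, 0.642% passed the adjusted p, and at the unadjusted p 4.66% were higher and 6.37% lower, so that the counts of this list are no more than the background. Those 3 were Nola3 and Nola2, subunits of the complex that makes pseudouridine in ribosomal RNA, and Nat10, an acetyltransferase of ribosomal RNA. Nola3 had 89.2 and 76.3 RPKM in wild type and 115 and 113 RPKM in G85R, a log2 fold change of 0.46 (adjusted p = 0.173 from limma). Nola2 had 31.0 and 27.96 RPKM in wild type and 40.3 and 37.5 RPKM in G85R, and Nat10 had 6.54 and 6.72 RPKM against 5.16 and 5.39. Mdn1, a ribosome assembly ATPase, had the largest decrease of the list at -0.37, with 2.22 to 5.08 RPKM and overlapping groups. For 16 of the 55 entries both G85R values were under both wild-type values (as for 23.9% of all tested entries), and for 3 they were over them (as for 17.3% of all tested entries).

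Of other translation factors and messengers with a pyrimidine tract, 23 entries were tested, 0 passed the adjusted p from limma, 2 were higher and 0 lower at an unadjusted p under 0.05 (as were 4.66% and 6.37% of all tested entries), and the median was 0.09. Eef1a1, the elongation factor that brings aminoacyl-tRNA, had 4.68 and 2.86 RPKM in wild type and 8.48 and 5.40 RPKM in G85R, with a log2 fold change of 0.87 (adjusted p = 0.330 from limma). Eif3f, a subunit of an initiation factor, had 97.4 and 112 RPKM in wild type and 127 and 125 RPKM in G85R. Vim, an intermediate filament of glia, had the second largest increase at 0.46, and the largest decreases were those of Tpt1 (-0.29) and Eef2 (-0.10), the translocase of elongation. Of Gnb2l1, the Rack1 scaffold on the small subunit, and Fau, a ubiquitin-like fusion of a small subunit protein, Gnb2l1 had 103 and 114 RPKM in wild type and 114 and 117 RPKM in G85R. Fau had 1.70 and 4.598 RPKM in wild type and 2.07 and 5.23 RPKM in G85R, higher in replicate 2 of either genotype. Copies elsewhere in the genome were not sought for the genes of this list, so their part in these levels is not described.

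Of the regulators of ribosomal protein synthesis, 23 were tested, 0 passed the adjusted p from limma, 1 was higher and 0 lower at an unadjusted p under 0.05 (as were 4.66% and 6.37% of all tested entries, near which this list stood), and the median log2 fold change was 0.01. The 1 gene, Tsc2, which restrains mTOR, had 46.6 and 49.3 RPKM in wild type and 61.3 and 57.1 RPKM in G85R, with a log2 fold change of 0.30 and an adjusted p of 0.341 from limma. Rps6kb2, an S6 kinase, stood at 0.33, and the largest decreases were those of Yy1 (-0.20), a transcription factor, and Gbl (-0.19), a subunit of the mTOR complexes. The mitochondrial ribosomal protein entries had a median of -0.05 over 74 tested, with 27 of 74 higher in G85R, against 30 of 39 for the cytosolic ones. The medians of the 3 lists, from -0.08 to 0.09, lay below the 0.17 of the cytosolic ribosomal protein entries. The list of other translation factors and messengers with a pyrimidine tract is mixed, and holds Vim, Gnb2l1 and Fau as well. The share higher in G85R was 73.9% (17 of 23) for this mixed list, near the 76.9% of the cytosolic ribosomal protein entries. It was 56.5% (13 of 23) for the regulators and 25.5% (14 of 55) for ribosome biogenesis, against 45.3% of all tested entries. Of the 23 entries of the mixed list, 7 lay above without overlap and 1 below (as did 17.3% and 23.9% of all tested entries).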

How the data were processed

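Poly(A) RNA of laser-captured motor neuron cell bodies was sequenced in 4 libraries (75-base single reads). The authors mapped reads with Bowtie 0.12.3 to mm9 and to splice junctions of UCSC genes and quantified genes with Cufflinks. The deposited values are RPKM scaled by uniquely mapped reads, and the same RPKM with 1 read added. How reads with several places entered the RPKM is not stated in the sources used here. The study reports its mapping as reads with a single place in the genome. It also left the chaperone gene Hspa8 unevaluated, and gave processed pseudogenes as the reason. Reads were estimated as the RPKM divided by the RPKM of 1 read, so they are not exact counts, and no intervals were made from them.

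Groups were 2 wild-type against 2 G85R libraries. RPKM values were tested with limma 3.58.1 (R 4.3.3; eBayes with trend) on log2(RPKM + 0.1), for entries with a mean of at least 1 RPKM, and adjusted by Benjamini-Hochberg over all 11530. The pseudocount makes the fold changes of low genes too small. The test that the study names treats values as counts and was therefore an alternative. On simulated data with 200 genes changed 2-fold among 11530, 99% were recovered. The simulated noise was normal, with a spread set by the mean level alone. Genes of a like level thus had the same spread, which real genes do not, so that share does not give the power of the real comparison. Genes whose replicates lie further apart, such as Rps19 and Rplp1, are not covered by it. In the real fit Rps27a, 1.96-fold higher, and Rpl26, 2.48-fold lower, had adjusted p of 0.298 and 0.207 from limma. Sums were compared by an exact permutation test.

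The messenger of each symbol was its first GENCODE vM1 transcript, and coding windows of 75 bases were sought on 22 chromosome sequences of NCBIM37 (mm9), also with exact matches only. Only the nearest places printed beside the sequences were sought without chromosome 18.

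Named were members with an unadjusted p under 0.05, the 10 with the highest means, those under 1 RPKM, paralogs, stalk proteins and Rpsa, the shortest and longest, the 5 largest changes in either direction and, of the 3 lists, the 2 largest changes in either direction. Others, such as Rpl14, Rpl37a and Nat10, were chosen after their values were seen. A few members that this rule takes are not reported here by name, though they remain in counts, medians and sums. Members and lists were chosen with earlier results of these data known. Alternatives were other pseudocounts, scalings, filters and variance models, a replicate block, libraries left out, voom on reads and the study's test.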

Additional observations from a re-analysis of the deposited data

How the results depend on the processing

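The number of ribosomal protein entries called was 0 with limma and stayed at 0 with another pseudocount (1 or 0.01), scaling, filter or variance model, with 1 read added and with voom. It was 2 with the replicate numbers as a block (Rpl26 and Rps27a, where 4.57% of all entries were called), 0 to 2 with 1 library left out (Rpl26 and Rps19 without G85R replicate 1, Rplp1 without G85R replicate 2) and 1 by the likelihood ratio test. The replicate numbers were not taken to pair the mice, since the labels do not say what they share and there are only 2 pairs. Replicate differences of both genotypes correlated at 0.22 over 11530 genes and at 0.34 over the 39 members. The number at an unadjusted p under 0.05 was 4; it was 13 with the replicate block, 7 of 67 with a minimum mean of 0.1 RPKM, 2 of 82 with no filter, 1 of 82 by the likelihood ratio test and 5 to 11 with 1 library left out. Of the 3 lists, 3 genes were called with the replicate block (Eef1a1, Nola2 and Nola3) and 0 otherwise. The median log2 fold change kept its sign, from 0.09 to 0.21, and the ratio of summed RPKM lay between 1.07 and 1.20. The log2 fold changes of 23 members were followed singly; for the others, only counts were kept, and 26 to 31 of the 39 were higher in G85R with 1 library left out. Among the 23, the sign turned for Rps15, Rpl38, Rps21 and Rpl4 without wild-type replicate 1, for Rpl14 without wild-type replicate 2 or G85R replicate 1, and for Rps25 and Rpl4 without G85R replicate 2. Their ranges with 1 library left out were -0.066 to 0.30 for Rps15, -0.26 to 1.44 for Rpl38, -0.061 to 0.39 for Rps21, -0.63 to 0.21 for Rps25, -0.13 to 0.075 for Rpl4, -0.59 to 0.88 for Rpl14, and the cause was not tested. The Spearman correlation of level with unique share was 0.61 with up to 2 mismatches and with exact matches. The members under 1 RPKM had at most 59 estimated reads in a library, which limits what their values can show. Of these, 39 of 41 had no unique coding window with up to 2 mismatches, and the cause of their low RPKM was not tested.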
